A study of Mus musculus with 15 samples.

Results

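The genes described are 7 that microglia use to find and take up dying cells through exposed phosphatidylserine: the receptor kinases Axl and Mertk, the bridging ligands Gas6, Pros1 and Mfge8, and the receptors Timd4 and Stab1. They were chosen by name, and all 7 of them are among the 32372 genes of the count matrix. The matrix holds 102043 cells from 15 mice, and its values count unique molecular identifiers (UMIs, the tags that mark single captured RNA molecules). All 7 genes had at least 1 UMI, and 6 of the 7 passed the filter on low counts, Timd4 being the exception. All mice were 3.5-month-old males of strain C57BL/6J and genotype hTfR KI, in which the apical domain of the human transferrin receptor is knocked into the mouse locus, controls included. Each received 10 mg/kg once: 3 mice had ATV:RSV, the control antibody, and were sampled at day 1. ATV:4D9, an antibody to mouse TREM2, was given to 3 mice for each of days 1, 7, 14 and 28. ATV in both names stands for antibody transport vehicle, an Fc with a binding site for the transferrin receptor. Cells of cortex and hippocampus were enriched on CD45 beads, and the 3 processing batches each held 1 mouse of every group. Since ATV:RSV was sampled at day 1 alone, the 4 comparisons against it share the same 3 control mice, and time after dosing in controls cannot be told apart from the later days of ATV:4D9.

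Phosphatidylserine is kept on the inner leaflet of a living cell's membrane and appears on the outside of apoptotic cells, damaged neurites and some synapses. Gas6 and protein S (Pros1) bind it through a vitamin K-dependent Gla domain and dock it to the TAM receptors TYRO3, AXL and MERTK, while MFGE8 links it to integrins and TIM-4 (Timd4) and stabilin-1 (Stab1) bind it directly. In the brain, MERTK is the TAM receptor of resting microglia, and AXL is known as the one that inflammatory and interferon signals induce.

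The cells carried the defining markers of microglia. All 8 of the microglial markers listed, Tmem119 and P2ry12 among them, were detected, with a summed level of 12629 to 14235 CPM (UMI counts scaled to a common library total) at day 1 and 17196 to 20496 in the other 12 mice. Cells with at least 3 of 9 border-macrophage markers numbered 550 (0.539%), 64 to 87 in each mouse at day 1 and 18 to 36 in each of the others. Their marker list summed to 19.1 to 28.2 CPM at day 1 and 18.4 to 22.1 in ATV:RSV, and none of the 9 markers was at 0. The 4 monocyte markers summed to 13.3 to 17.6 CPM at day 1 and 4.39 to 11.2 in ATV:RSV, none at 0, and their part in the results was not tested. Neuronal markers were lower at day 1, at 7.57 to 11.4 CPM against 14.5 to 20.1 in ATV:RSV. So were those of oligodendrocytes (19.5 to 21.1 against 30.0 to 38.7) and B cells (22.1 to 24.2 against 29.1 to 36.1). T cell markers were higher (0.327 to 0.676 against 0.0757 to 0.258), and the part of these lists was not tested. The 4 neutrophil markers, none at 0, summed to 116 CPM in day 7 replicate 3 and 0.892 to 9.01 in the other 14 mice. Without that mouse the day 7 log2 fold change of Axl was 1.76 (limma-voom adjusted p = 0.000905) and that of Gas6 was -0.43 (adjusted p = 0.0628). Depth was 32341960 to 70307384 UMIs per mouse, with medians of 8202 to 8996 UMIs per cell at day 1 and 4694 to 6117 in the other mice, and 1283 barcodes (2.53% of cells) occurred in more than 1 library.

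The comparisons ask which phosphatidylserine receptors and ligands changed with ATV:4D9 and at which days. At day 1 the receptors went opposite ways, Axl rising and Mertk falling, the ligand Pros1 rose slightly, and the ligands Gas6 and Mfge8 and the receptor Stab1 fell. These last falls, of Gas6, Mfge8 and Stab1, were of shares of a mouse's UMIs and lost their calls when counts were scaled by the number of cells, an alternative chosen after seeing the data (log2 fold changes of 0.08, -0.11 and -0.11, limma-voom adjusted p of 0.524, 0.464 and 0.323). On that scale Mertk was -0.29 in place of -0.65 and Pros1 0.51 in place of 0.15, and both kept their calls. Of 16 alternative fits outside single clusters, the Pros1 call was lost in 4 with its sign kept. In 1 more the sign turned and the call was lost as well. At day 7, Axl was still raised and Gas6 was lower, although the Gas6 call was lost in 6 of these 16 alternatives and that of Axl in 0. At days 14 and 28 no member passed the test. Levels are CPM of the summed UMIs of a mouse, scaled by the trimmed mean of M values (TMM), and fold changes are differences of log2 CPM from limma-voom with p-values adjusted over all 14260 genes tested.

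**Figure D1:**
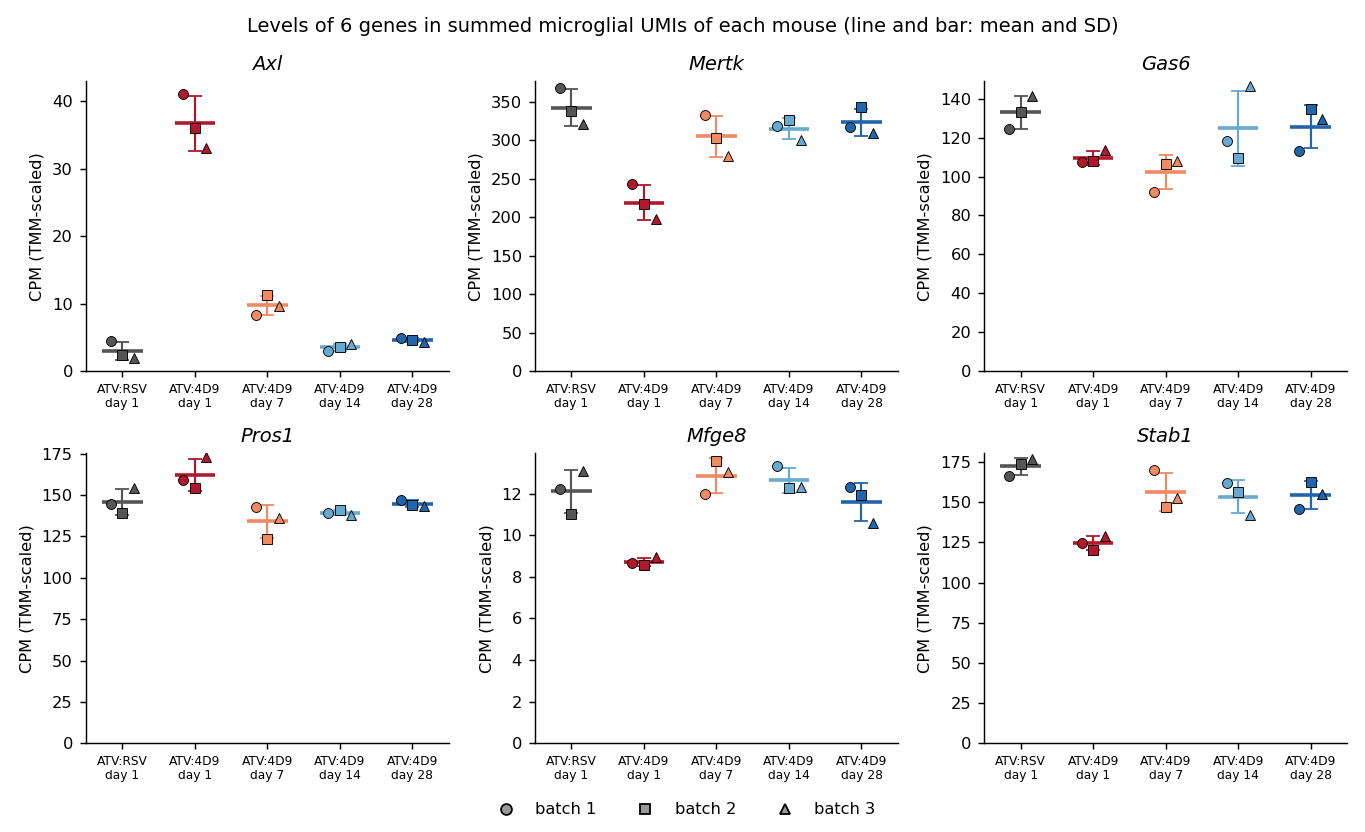
TMM-scaled CPM (vertical axis, from 0) of Axl, Mertk, Gas6, Pros1, Mfge8 and Stab1 in each of the 15 mice, by group (horizontal axis). Points are mice, their shape the batch, and lines and bars the mean and SD of 3 mice. The 3 day 1 mice lie at 33.0 to 41.0 CPM of Axl, where every other mouse lies at or below 11.2, and at 197 to 242 CPM of Mertk, below all other mice.

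Axl, the inducible TAM receptor (chromosome 7, 25757273 to 25788705, minus strand, mm10), measured 4.50, 2.39 and 2.00 CPM in the ATV:RSV mice of batches 1, 2 and 3. It measured 41.0, 36.1 and 33.0 CPM at day 1, 8.35, 11.2 and 9.71 at day 7, 3.01, 3.63 and 3.98 at day 14 and 4.98, 4.61 and 4.34 at day 28. All day 1 and all day 7 mice lay above every control, and the later groups overlapped with the controls, whose batch 1 mouse was the highest of the 3. The log2 fold change was 3.69 at day 1 (95% interval 3.25 to 4.12, limma-voom adjusted p = 2.1e-10), 12.9-fold on the linear scale, and 1.76 at day 7 (1.29 to 2.24, adjusted p = 0.000132). At day 14 it was 0.30 (-0.24 to 0.84, adjusted p = 1.00) and at day 28 it was 0.70 (0.20 to 1.21, limma-voom adjusted p = 1.00 and 0.00969 unadjusted). Same-batch differences, here and below, are of log2 CPM after adding 0.5 CPM, which shrinks them at the low levels of Axl. For Axl they were 3.06, 3.66 and 3.74 at day 1 and 0.82, 2.02 and 2.03 at day 7, the smallest in batch 1. At day 28 they were 0.13, 0.82 and 0.95, and without ATV:RSV replicate 1 the limma-voom log2 fold change of day 28 was 1.08.

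Mertk, the TAM receptor of resting microglia (chromosome 2, 128698956 to 128802894, plus strand), measured 368, 338 and 321 CPM in ATV:RSV, and 242, 217 and 197 CPM at day 1. The day 1 mice lay below all other mice of the series. The log2 fold change was -0.65 (95% interval -0.81 to -0.48, limma-voom adjusted p = 2.07e-06), and within the batches the difference was -0.60, -0.64 and -0.70. Scaled by the number of cells the log2 fold change was -0.29 (limma-voom adjusted p = 0.0329). At days 7, 14 and 28 the group means were 305 ± 26.6, 315 ± 13.6 and 323 ± 17.6 CPM (SD, n = 3), with log2 fold changes of -0.17, -0.12 and -0.08, groups that overlapped and adjusted p-values of 0.295 and above. Counted as 3′ tags, with no scaling to length, Axl made up 0.621% to 1.21% of the UMIs of Axl, Mertk and Tyro3 in ATV:RSV, 14.2% to 14.5% at day 1, 2.45% to 3.59% at day 7, 0.939% to 1.31% at day 14 and 1.33% to 1.54% at day 28. Mertk kept most of the receptor UMIs in all 15 mice. Tyro3, the remaining TAM receptor, had 1 to 18 UMIs per mouse.

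Because Axl and Mertk moved in opposite directions, the 250 bases before the start of each are shown, with those of their ligand Gas6, from RefSeq on GRCm38.p6 (the build of mm10), 5′ to 3′ on the strand of the gene. Capitals mark each GC box, GGGCGG on either strand. The windows are chr7:25788734-25788983 (minus strand), chr2:128698665-128698914 (plus strand) and chr8:13494536-13494785 (minus strand).
Axl: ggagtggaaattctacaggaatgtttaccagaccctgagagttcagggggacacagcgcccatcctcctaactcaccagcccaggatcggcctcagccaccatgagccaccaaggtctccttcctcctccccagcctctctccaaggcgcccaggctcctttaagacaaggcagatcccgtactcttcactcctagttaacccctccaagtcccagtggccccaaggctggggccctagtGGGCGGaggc
Mertk: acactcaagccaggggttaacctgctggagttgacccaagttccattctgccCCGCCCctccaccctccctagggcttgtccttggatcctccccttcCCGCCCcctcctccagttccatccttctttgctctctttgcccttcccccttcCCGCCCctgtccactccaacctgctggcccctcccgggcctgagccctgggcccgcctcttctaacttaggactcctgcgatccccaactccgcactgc
Gas6: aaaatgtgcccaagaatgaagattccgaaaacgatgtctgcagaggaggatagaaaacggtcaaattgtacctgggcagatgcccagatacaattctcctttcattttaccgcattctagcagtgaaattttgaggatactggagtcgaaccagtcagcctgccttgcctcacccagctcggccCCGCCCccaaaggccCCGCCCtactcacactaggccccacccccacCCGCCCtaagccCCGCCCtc
Axl held 1 GC box, Mertk 3 and Gas6 4, while Pros1 held 5, Mfge8 4 and Timd4 and Stab1 0, against 1 or more in 32.9% of 27018 promoter windows of this length. Searched on both strands, the interferon-stimulated response element core (in 3.04% of windows), the AP-1 site (TGACTCA, 4.43%) and the TATA box (TATAAA, 13%) had no match in the windows of the 7 genes, and the gamma-activated site (TTCNNNGAA, 7.18%) had 1, in Pros1. In the 3 windows shown no motif other than the GC box matched, so none overlapped with it. These are matches of letters in 1 short window and do not bear on whether a factor binds.

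Gas6, the ligand of all 3 TAM receptors (chromosome 8, 13465374 to 13494490, minus strand), measured 125, 133 and 141 CPM in ATV:RSV, 107, 108 and 114 at day 1 and 92.3, 106 and 108 at day 7. Both groups lay wholly below the controls. The log2 fold change was -0.28 at day 1 (95% interval -0.48 to -0.08, limma-voom adjusted p = 0.0162) and -0.38 at day 7 (-0.58 to -0.18, adjusted p = 0.0361). Day 7 did not differ detectably from day 1 (log2 fold change -0.10, interval -0.30 to 0.10, adjusted p = 0.364), although it was lower when scaled by the number of cells (-0.57, limma-voom adjusted p = 0.000139). The day 7 call was lost without any 1 of 5 of the 6 mice compared (adjusted p of 0.0628 to 0.140), ATV:RSV replicate 1 being the exception, and with no filter on low counts (0.0566). The day 1 call was lost without ATV:RSV replicate 3 (0.0660) or day 1 replicate 1 (0.0540). At days 14 and 28, Gas6 averaged 125 ± 19.2 and 126 ± 11.2 CPM (SD, n = 3), overlapping with the controls.

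Pros1, the anticoagulant protein S and a ligand of MERTK and TYRO3 (chromosome 16, 62854307 to 62929346, plus strand), measured 144, 139 and 154 CPM in ATV:RSV and 159, 154 and 173 at day 1. The highest control lay just above the lowest day 1 mouse, so the groups overlapped, although in each batch the day 1 mouse was the higher one (log2 differences of 0.14, 0.15 and 0.16). The log2 fold change was 0.15 (95% interval 0.03 to 0.27, limma-voom adjusted p = 0.0289). With the library size alone in place of TMM it was -0.09 (adjusted p = 0.133), and the call was also lost without ATV:RSV replicate 1 (0.0697) or 2 (0.123) or day 1 replicate 3 (0.120), and in a fit of only the 2 groups compared (0.0598). Scaled by the number of cells it was larger, at 0.51 (limma-voom adjusted p = 7.15e-05). At days 7, 14 and 28, the log2 fold changes were -0.12, -0.06 and -0.01, none of which passed the test.

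Mfge8, the secreted bridge between phosphatidylserine and integrins (chromosome 7, 79133768 to 79149060, minus strand), measured 12.2, 11.0 and 13.1 CPM in ATV:RSV and 8.65, 8.59 and 8.94 at day 1. All day 1 mice lay below all other mice. The log2 fold change was -0.47 (95% interval -0.64 to -0.30, limma-voom adjusted p = 7.48e-05), and it was 0.09, 0.07 and -0.06 at days 7, 14 and 28, with groups that overlapped.

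Stab1, the scavenger receptor stabilin-1 (chromosome 14, 31139013 to 31168641, minus strand), measured 166, 174 and 177 CPM in ATV:RSV and 124, 120.2 and 129 at day 1. All day 1 mice lay below every mouse of the other groups. The log2 fold change was -0.47 (95% interval -0.60 to -0.34, limma-voom adjusted p = 5.35e-06). At day 14 it measured 162, 156 and 142 CPM and at day 28 it measured 146, 163 and 155. Both groups lay below all 3 controls, with log2 fold changes of -0.17 and -0.16, but neither passed the test (limma-voom adjusted p = 0.640 and 1.00, unadjusted 0.0159 and 0.0209).

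Timd4, the gene of TIM-4 (chromosome 11, 46810800 to 46844332, plus strand), was close to the limit of detection. It had 25 UMIs in 24 of the 102043 cells, 0 to 7 UMIs per mouse, and did not enter the limma-voom fits. Of the 24 cells, 6 were among the 550 with border-macrophage markers, and 12, 2 and 10 lay in deposited clusters 0, 1 and 2. At day 28, 0 of 21697 cells had a UMI, which over the pooled cells of 3 mice allows a share of up to 0.0138% of cells with a UMI, for counting error alone. No difference between groups was detectable at this depth.

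In counts, all 6 members tested were called at day 1, 2 higher and 4 lower, beside 69.2% of all genes tested in limma-voom (34.7% higher and 34.6% lower), so a call there is no mark of these genes. The groups did not overlap for 5 of the 6, beside 71.5% of all genes. At day 7, 2 of 6 were called (Axl higher and Gas6 lower), beside 3.98% of all genes (2.99% higher and 0.996% lower), and the same 2 did not overlap, beside 21.2%. At day 14, limma-voom called 0 of 6 beside 0.4% of all genes, with 1 member (Stab1) at an unadjusted p under 0.05, and edgeR and DESeq2 also called 0, beside 0.414% and 1% of all genes. At day 28 it called 0 of 6 beside 0% of all genes, with 2 members (Axl and Stab1) at an unadjusted p under 0.05, and edgeR and DESeq2 called 0 of 6, beside 0% and 0.0983%. Of the 6 members tested, Stab1 alone did not overlap with the controls at day 14 (10.4% of all genes) and day 28 (8.93%). The median log2 fold change of the 6 was -0.37, -0.13, -0.08 and -0.07 at days 1, 7, 14 and 28, and that of all genes tested was -0.05, -0.00, -0.00 and 0.00.

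**Figure D2:**
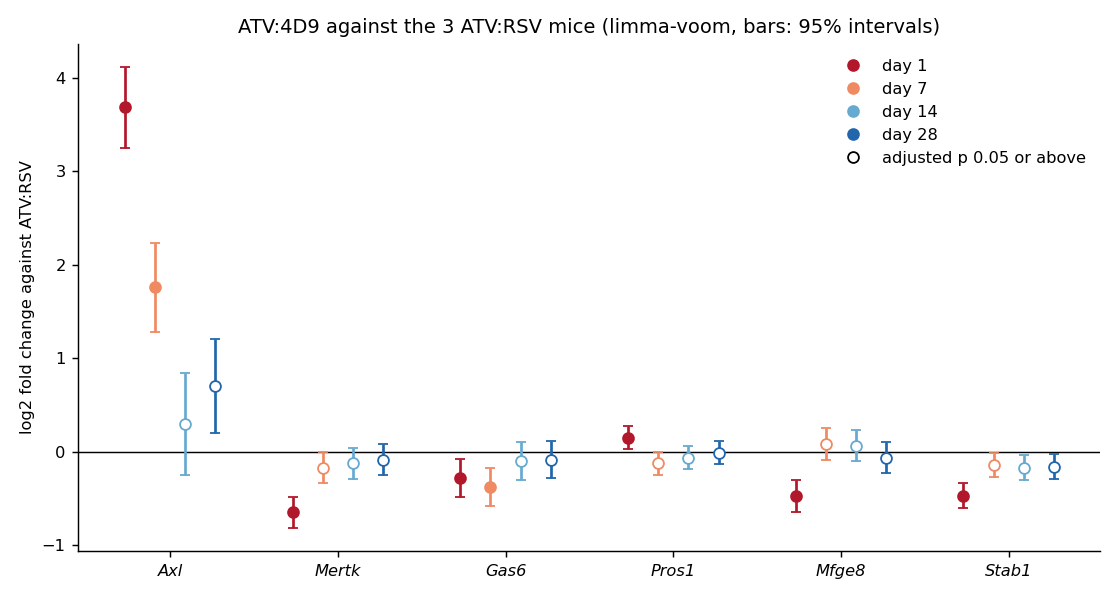
Log2 fold change of each gene (vertical axis) at days 1, 7, 14 and 28 of ATV:4D9 against the 3 ATV:RSV mice, with 95% intervals from limma-voom. Filled points have an adjusted p under 0.05: all 6 genes at day 1, from -0.65 (Mertk) to 3.69 (Axl), and Axl (1.76) and Gas6 (-0.38) at day 7.

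Day 7 was also set against day 1 directly. In this contrast 5 of 6 members were called, beside 66.9% of all genes, and the groups of the same 5 did not overlap, beside 70% of all genes. On the log2 scale, Axl fell by 1.92 between those days (limma-voom adjusted p = 6.91e-09, SE 0.141) and Pros1 by 0.27 (SE 0.0576, adjusted p = 0.000599). Mfge8 rose by 0.56 (SE 0.0813, limma-voom adjusted p = 1.56e-05), Mertk by 0.48 (SE 0.0785, 5.81e-05) and Stab1 by 0.33 (SE 0.0621, 0.000212). Scaled by the number of cells in place of TMM, the median of all genes moved to -0.44 and the calls of Mfge8 (0.098), Mertk (0.013) and Stab1 (-0.13) were lost (limma-voom adjusted p of 0.218 to 0.930), while Gas6 was called lower (-0.57, adjusted p = 0.000139) and the fall of Pros1 was larger (-0.74, limma-voom adjusted p = 7.80e-07). Within deposited clusters 0, 1 and 2, taken singly, Axl differed the other way, by 0.69, 0.44 and 0.64. It was called higher at day 7 in cluster 2 alone (limma-voom adjusted p of 0.403, 0.501 and 0.00285). The clusters were made from the same counts. Cluster 2 held 5607 to 6597 cells of a mouse at day 1 and 120 to 245 at day 7, and its part was not tested.

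These levels are shares of the UMIs of a mouse, and cells of day 1 mice held more UMIs. Per cell, Axl was at 0.309 ± 0.0551 UMIs at day 1 against 0.0196 ± 0.0102 in ATV:RSV (SD, n = 3), and Pros1 at 1.35 ± 0.0695 against 0.950 ± 0.0887, with all day 1 mice above all controls for both. Gas6 was at 0.915 ± 0.0390 against 0.864 ± 0.0509 UMIs per cell, Mfge8 at 0.0729 ± 0.00402 against 0.0790 ± 0.0102, Stab1 at 1.04 ± 0.0639 against 1.12 ± 0.0538 and Mertk at 1.84 ± 0.316 against 2.23 ± 0.287, and in these 4 the groups overlapped. When limma-voom was scaled by the number of cells, the median of all genes moved to 0.32 at day 1, with 49.3% of genes higher and 13.4% lower. There, Mertk stayed lower, whereas Mfge8, Stab1 and Gas6 lost their calls. At day 7, Gas6 was at 0.621 ± 0.0901 UMIs per cell, below all controls, and its call held on this scale (-0.48, limma-voom adjusted p = 0.0240), where the median of all genes was -0.11. Mertk, at 1.84 ± 0.118, and Stab1, at 0.949 ± 0.0981 UMIs per cell, also lay below all controls at day 7, but were not called on this scale (-0.27 and -0.24, limma-voom adjusted p = 0.233 and 0.198). In a sum over cells, fewer expressing cells and less RNA per cell cannot be told apart.

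To look at cells rather than sums, each cell was thinned at random to 3385 UMIs, and shallower cells were left out. These were 3.93% to 5.79% of the cells of a day 1 mouse, 8.69% to 17.8% in ATV:RSV and 6.75% to 17.4% in later groups. At 1 fixed depth a gene is still read relative to the other UMIs of its cell, as in CPM. A UMI of Axl was then found in 0.757 ± 0.355% of cells in ATV:RSV, 7.90 ± 0.694% at day 1, 2.75 ± 0.403% at day 7, 1.04 ± 0.163% at day 14 and 1.18 ± 0.0109% at day 28 (SD, n = 3). Without thinning the shares were 1.44%, 17.2%, 4.79%, 1.96% and 2.43%. The day 28 mice, at 1.17% to 1.18%, all lay above the highest control, at 1.15%, by a margin smaller than the spread of the controls.

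Mertk fell from 67.3 ± 2.32% of thinned cells in ATV:RSV to 47.2 ± 4.79% at day 1 and was at 60.3 ± 1.85%, 62.5 ± 1.64% and 65.6 ± 2.40% at days 7, 14 and 28. The Mertk shares of days 1, 7 and 14 lay below all controls. Gas6 was at 36.6 ± 2.14% in ATV:RSV, 27.2 ± 0.278% at day 1 and 27.9 ± 1.99% at day 7, both days below all controls. Stab1 was at 42.5 ± 1.05% in ATV:RSV. It was at 31.1 ± 0.452% at day 1, 37.6 ± 1.98% at day 7, 38.6 ± 2.05% at day 14 and 40.0 ± 1.55% at day 28, each group lying below all controls. At day 28 the highest mouse, at 41.68%, lay just under the lowest control, at 41.72%, a margin smaller than the spread of the controls. Mfge8 was at 4.29 ± 0.355% against 2.69 ± 0.132% at day 1, and Pros1 at 40.1 ± 2.06% against 39.1 ± 1.87%, where the groups overlapped. At day 7 Pros1 was at 35.7 ± 1.86%, below all controls. Thinned shares were not taken for all genes, so how many genes would lie apart in this way is not known. Unthinned shares at day 1 and in ATV:RSV were 75.0% and 81.6% for Mertk, 51.8% and 51.4% for Gas6, 57.4% and 58.6% for Stab1, 6.86% and 7.39% for Mfge8 and 68.9% and 56.8% for Pros1.

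Over all 5 groups, 6 of 6 members were called by limma-voom's F test, beside 66.5% of all genes. In the cell shares, the 5 groups were permuted within the batches in an exact test of the spread between group means, which has no direction. This exact permutation gave p = 0.000417 for Axl, 0.000764 for Mertk, 0.00333 for Stab1, 0.0122 for Gas6, 0.0184 for Mfge8, 0.03 for Pros1 and 0.473 for Timd4. These are 7 unadjusted tests, and the exact test of 3 mice against 3 cannot go below p = 0.1. No cell type that should lack these genes was present in numbers: apart from 101 cells with 3 neuronal markers, 87.1% of which also held Mertk, at most 33 cells carried 3 markers of any type other than microglia and border macrophages. The level that free RNA alone would give was therefore not measured.

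**Figure D3:**
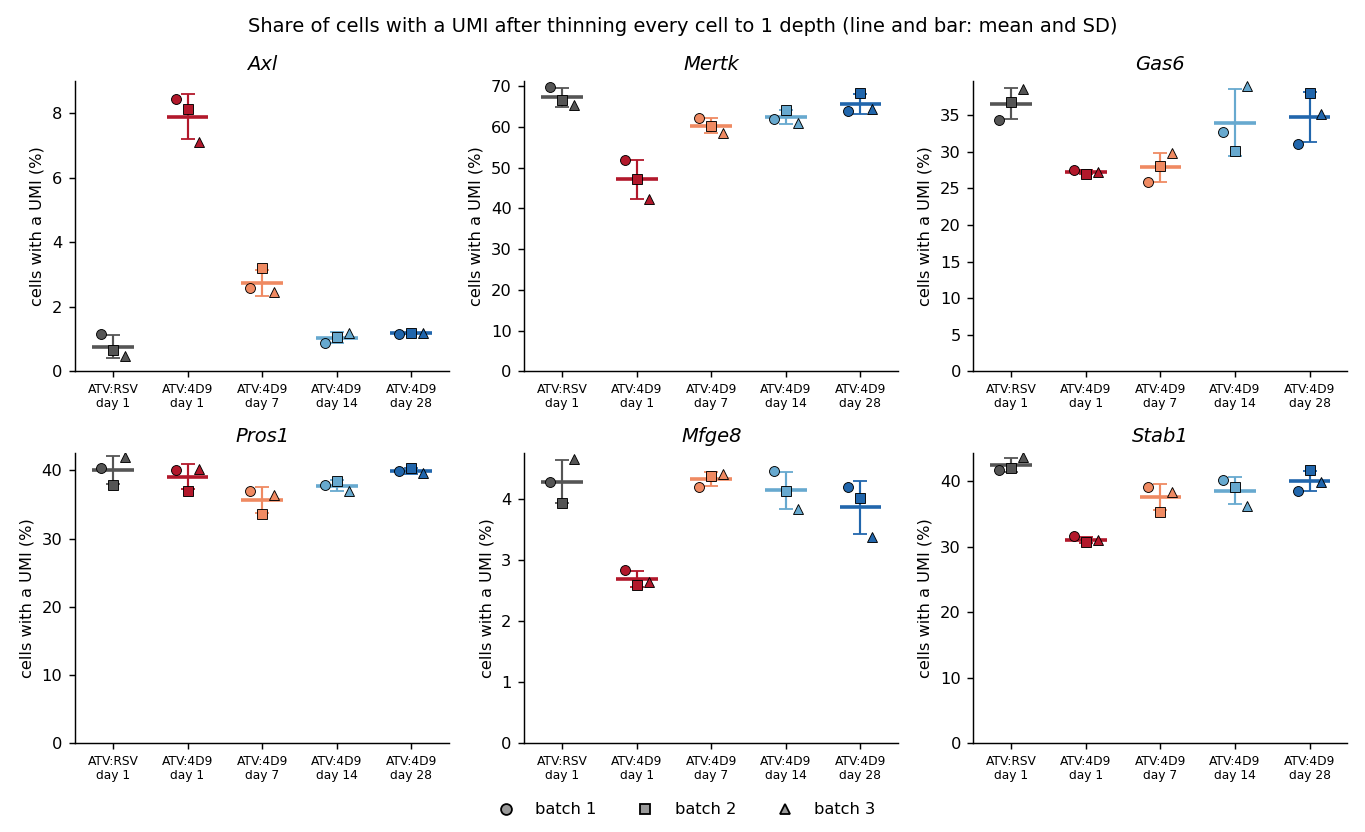
Percent of cells with at least 1 UMI (vertical axis, from 0) of each of 6 genes in each mouse, after every cell was thinned to 3385 UMIs, by group (horizontal axis). Points are mice, their shape the batch, and lines and bars the mean and SD of 3 mice. Axl is at 7.11% to 8.44% at day 1 and Mertk at 42.4% to 51.9%, apart from the other groups, while Pros1 overlaps between ATV:RSV and day 1.

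The deposited cell table sorts the cells into 3 clusters that were made from the same counts, so a cluster against the rest is a description. Fits within a cluster also depend on that sorting, and the groups filled the clusters unequally. They cannot tell a change within cells from a change in which cells were sorted there. Cluster 2 held 5607 to 6597 cells of each day 1 mouse and 74 to 245 of each other mouse. Levels within a set of cells are given as CPM of the UMIs of those cells alone, without TMM, and are not on the scale of the whole-mouse CPM. In ATV:RSV, Axl stood at 49.0 CPM in cluster 2 (32.6 to 62.9), 2.45 in cluster 0 (1.61 to 3.95) and 1.05 in cluster 1 (0.686 to 1.40). Thus 76 to 165 cells of cluster 2 gave 34.5% to 43.4% of the Axl UMIs of a control mouse. At day 1, cluster 2 gave 98.9% to 99.5% of them, at 34.4 ± 4.83 CPM (SD, n = 3). ATV:RSV replicate 1, the control with most Axl, was also the one with most cells in cluster 2, and it had the most Axl in cluster 0 as well (3.95 CPM against 1.61 and 1.79).

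Axl at day 7 was not confined to cluster 2, which gave 17.4% to 22.0% of its UMIs there. In cluster 1, the 3 day 7 mice had 70, 82 and 134 Axl UMIs in 2184 to 3082 cells, against 20, 11 and 9 in 2693 to 2993 cells of the controls. In limma-voom fits within a cluster, Axl was higher at day 7 by 1.82 in cluster 0 (SE 0.240, adjusted p = 0.000162, beside 4.28% of genes called) and by 3.09 in cluster 1 (SE 0.309, adjusted p = 7.86e-07, beside 5.76%). It was called in both clusters without any 1 of the 6 mice (1.56 to 2.26 and 2.81 to 3.35).

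At day 14, Axl was higher in cluster 1 by 1.45 (SE 0.343, limma-voom adjusted p = 0.0402, beside 1.18% of genes), with 29, 27 and 46 UMIs. This call was lost without any 1 of 5 of the 6 mice (adjusted p of 0.0647 to 0.273), day 14 replicate 1 being the exception. At day 28 it was 1.74 in cluster 1 with 58, 50 and 38 UMIs, all above the controls, and did not pass the test (limma-voom adjusted p = 0.166). In cluster 0 the values at days 14 and 28 were 0.60 and 0.82 (adjusted p of 0.827 and 0.996).

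Among cells of cluster 2, day 1 mice did not differ detectably from controls in Axl (log2 fold change of -0.40 with an SE of 0.185, limma-voom adjusted p = 0.0988), although it passed as lower without ATV:RSV replicate 3 (-0.58, adjusted p = 0.0251) or day 1 replicate 1 (-0.47, 0.0360). Sorting on the same counts can by itself make the cells of a cluster alike, so nothing about an effect within cluster 2 is read from this. Clusters 0 and 1 held 211 to 383 and 180 to 555 cells of a day 1 mouse. Axl differed from ATV:RSV by 1.13 in cluster 0 (SE 0.466, limma-voom adjusted p = 0.190), which passed the test only without ATV:RSV replicate 1 (1.57, 0.0219), and was higher by 2.65 in cluster 1 (SE 0.427, limma-voom adjusted p = 0.000375), on 4 to 17 UMIs a mouse in cluster 1. In the same cells, Mertk differed from ATV:RSV by -0.04 and -0.11, Gas6 by 0.01 and 0.10 and Stab1 by -0.19 and -0.19, none called. Pros1 was higher by 0.29 in cluster 0 (SE 0.0790, limma-voom adjusted p = 0.0419, beside 5.09% of genes) and by 0.28 in cluster 1 (SE 0.0751, adjusted p = 0.02, beside 9.18%). The call of cluster 0 was lost without any 1 of 5 of the 6 mice (adjusted p of 0.0726 to 0.181), ATV:RSV replicate 3 being the exception, and that of cluster 1 without ATV:RSV replicate 2 (0.0776) or day 1 replicate 1 (0.133) or 3 (0.0738). Within cluster 2, Mertk (-0.35, adjusted p = 0.0324) and Mfge8 (-0.80, limma-voom adjusted p = 0.0146) were lower, beside 36.8% of genes. Gas6, Pros1 and Stab1 were not called there. The controls held only 22, 6 and 15 Mfge8 UMIs in cluster 2, against 403 to 503 in the day 1 mice. The Mertk call was lost without ATV:RSV replicate 1 or 3 or day 1 replicate 2 or 3 (adjusted p of 0.0566 to 0.354), and that of Mfge8 without ATV:RSV replicate 1 (0.172) or 3 (0.113).

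The lower Gas6 of day 7 appeared in both large clusters. It was 102 CPM in cluster 0 against 141 in ATV:RSV, and 99.9 against 143 in cluster 1. The log2 fold changes were -0.40 (SE 0.0937, limma-voom adjusted p = 0.0204) and -0.38 (SE 0.0977, adjusted p = 0.0239). Both calls were lost without ATV:RSV replicate 2 or 3 or day 7 replicate 1, and that of cluster 1 also without day 7 replicate 2 (adjusted p of 0.0613 to 0.103).

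**Figure D4:**
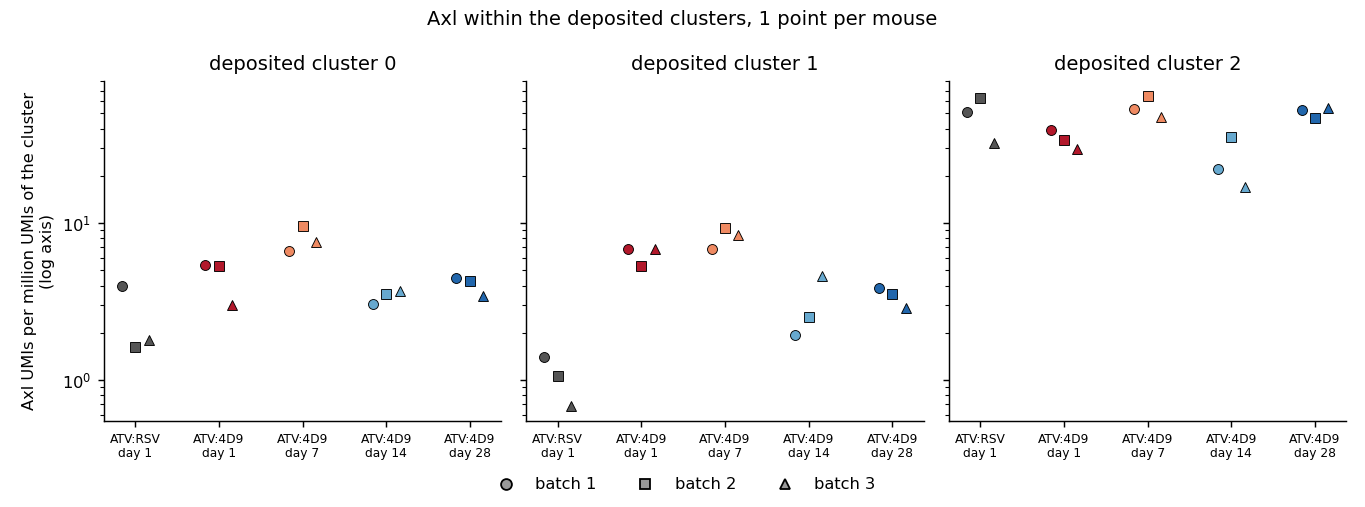
Axl CPM of the UMIs of a deposited cluster (vertical log axis) in each mouse, by group (horizontal axis) and cluster (panels). Points are mice and their shape the batch. In clusters 0 and 1 the day 7 mice lie at 6.62 to 9.65 and 6.85 to 9.25, above the controls, while cluster 2 lies at 16.9 to 64.1 in all groups.

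Axl was also read in cells picked by interferon genes, as a description. At day 1, 4592 of 20459 cells held a UMI of both Isg15 and Ifit3, and they gave 58.2% to 62.2% of the Axl UMIs of a mouse, at 71.6 ± 8.86 CPM (SD, n = 3). In ATV:RSV, 263 of 20301 cells held both, with 3 to 73 Axl UMIs a mouse, and gave 3.03% to 33.2% of them at 23.4 ± 23.6 CPM. In the remaining day 1 cells Axl was at 18.1 ± 2.47 CPM, and in the same class of ATV:RSV cells it was at 2.58 ± 0.651, higher at day 1 in 3 of 3 mice. Cells with a UMI of only 1 of the 2 genes stay in that class, and the part of interferon signals was not tested. Mertk, in contrast, was at 163 ± 18.5 CPM in the Isg15 and Ifit3 cells of day 1 and 209 ± 24.9 in the rest, and Gas6 at 71.8 ± 0.380 and 108 ± 2.45. In cells with a UMI of the cycle genes Mki67 or Top2a at day 1, Axl was at 25.1 ± 6.06 CPM, against 36.3 ± 3.10 in cells with neither. Within day 1, the interferon-marked and cycling cells were deeper than the rest, with medians of 11036 and 10629 UMIs per cell against 7913 and 7887.5 in the unmarked cells, and the part of depth was not tested.

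Within thinned cells of day 1 mice, Axl and Gas6 were found in the same cell 0.560 to 0.631 times as often as their separate shares give, in 69 to 99 cells a mouse. For Axl with Mertk this ratio was 0.821 to 0.900 (140 to 246 cells), and for Mertk with Gas6 it was 1.03 to 1.06. Axl was also below 1 with Pros1 (0.779 to 0.800), Stab1 (0.690 to 0.889) and Mfge8 (0.283 to 0.977, in 3 to 16 cells). At day 7 the ratio of Axl with Gas6 was 0.660 to 0.945, in 22 to 44 cells a mouse. For Axl with Mertk it was 0.709 to 1.02 in ATV:RSV, in 17 to 47 cells a mouse, which overlapped with day 1, and 0.989 to 1.10 at day 7, in 80 to 111 cells. In ATV:RSV only 10 to 18 cells a mouse held both Axl and Gas6. At days 14 and 28 it was 12 to 22 and 13 to 21 cells, likewise too few to set against day 1.

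Border-macrophage-like cells were few but deep, with a median of 11367 UMIs at day 1 against 8487 in the other cells. At day 1 their Axl stood at 42.6 ± 20.3 CPM (SD, n = 3), and that of the other cells at 32.8 ± 3.88 CPM. Without the border-macrophage-like cells the day 1 log2 fold changes were 3.71 for Axl, -0.64 for Mertk, -0.29 for Gas6, 0.15 for Pros1, -0.46 for Mfge8 and -0.48 for Stab1. All 6 calls held in limma-voom (adjusted p of 0.0262 or lower).

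The rest of the machinery was read from a list of 58 further genes for phosphatidylserine recognition and engulfment, 46 of which were tested. At day 1, 14 were called higher and 17 lower, 67.4% beside 69.2% of all genes, with a median log2 fold change of -0.05, the same as that of all genes. The counts by role hold few genes each and stand beside 34.7% of all genes higher and 34.6% lower, and nothing is read from them for a role. Among the other phosphatidylserine receptors 2 of 7 rose and 4 fell: Cd300lf, a CD300 receptor of myeloid cells, rose by 2.84 (SE 0.181, limma-voom adjusted p = 1.18e-09), and its relative Cd300a fell by 1.18 (SE 0.0599, adjusted p = 7.94e-11). Cd300a thus went from 172 ± 3.18 CPM in ATV:RSV to 75.8 ± 6.00 at day 1. Of 4 further bridging or opsonising ligands, 3 rose, led by Lgals3 (galectin-3), which rose by 2.95 (limma-voom adjusted p = 6.29e-09), and the phosphatidylserine-binding annexin Anxa5, which rose by 0.72 (adjusted p = 7.40e-09). Tyro3 had 3, 6 and 1 UMIs in the controls and 15, 18 and 10 at day 1. Outside day 1 it reached 10 UMIs in only 2 mice, so it passed the filter on low counts mainly through the group where it was high, and its call, 1 of the 14, is not read as a rise.

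Vitamin K-dependent carboxylation makes the Gla domains of GAS6 and PROS1, and 2 of its 3 genes rose, Vkorc1l1 by 0.61 and Vkorc1 by 0.42. Both sheddases that release TAM receptor ectodomains rose, Adam17 by 0.32 and Adam10 by 0.11. Of the integrin genes for MFGE8 receptors, Itgb5 fell by 0.48 and Itgav rose by 0.21. In engulfment signalling 1 of 10 rose and 5 fell, among them the RAC activator Elmo1 (-0.63) and the lipid exporter Abca1 (-0.40). Of 8 scramblases and flippases, which place phosphatidylserine in the membrane, 1 rose and 4 fell, led by Atp11b (-0.60) and Ano6 (-0.44). The nuclear receptor Rxra fell by 1.21 (23.4 ± 0.817 to 10.1 ± 0.339 CPM) and Ppard by 0.46. Sirpa, the receptor for the CD47 signal that restrains engulfment, fell by 0.56. In limma-voom, the adjusted p-values of the genes named here were 0.0300 or lower. When counts were scaled by the number of cells, 26 of the 46 were higher and 4 lower. The 14 higher genes stayed higher, and of the 17 lower ones Cd300a (-0.82), Rxra (-0.85), Elmo1 (-0.27) and Atp11b (-0.24) stayed lower, while Vav1 turned higher. Itgb5 (-0.12), Abca1 (-0.04), Ano6 (-0.08), Ppard (-0.10) and Sirpa (-0.20) lost their calls on that scale (limma-voom adjusted p of 0.0916 to 0.720).

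At day 7, 2 of the 46 genes were called, 4.35% beside 3.98% of all genes. Cd300lf was still raised, from 1.58 ± 0.196 CPM in ATV:RSV to 3.83 ± 0.313 (log2 1.27, SE 0.207, limma-voom adjusted p = 0.0015), and Elmo2 had fallen by 0.31 (SE 0.0692, adjusted p = 0.0161). With the batch as a block 5 genes of the list were called at day 7, beside 7.11% of all genes. At days 14 and 28, limma-voom called 0 of 46, with medians of -0.02 and -0.03.

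**Figure D5:**
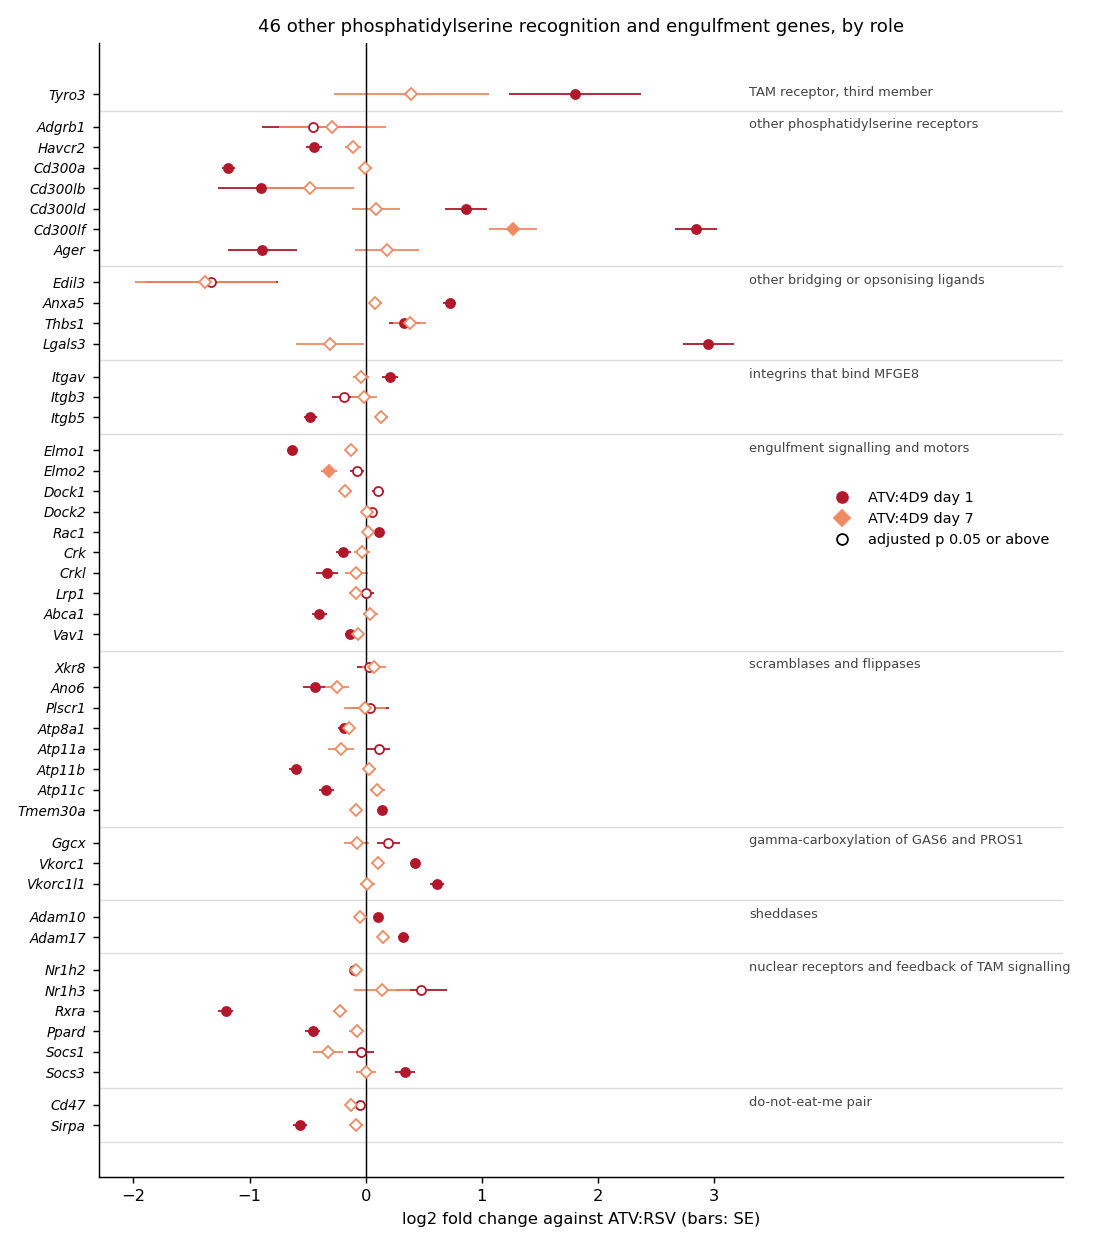
Log2 fold change against ATV:RSV (horizontal axis, bars SE) of the 46 tested genes of the wider list at day 1 (circles) and day 7 (diamonds), grouped by role. Filled symbols have a limma-voom adjusted p under 0.05, 31 genes at day 1 and 2 at day 7. Lgals3 (2.95), Cd300lf (2.84) and Rxra (-1.21) lie far from 0 at day 1, and only Cd300lf and Elmo2 are filled at day 7.

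The genes whose log2 CPM was most like that of a member across mice were also read off, as a description among genes of at least 5 CPM. Over all 15 mice, Axl was most like Clec7a (Pearson r = 0.985), Lgals3bp (0.980) and Fgl2 (0.979), and over the 12 mice outside day 1 it was most like Clec7a (0.938), Cxcl10 (0.932) and H2-D1 (0.930). Mertk was most like Dip2b, Tbck and Tbc1d14 (0.977 to 0.981), and in the 12 mice like Srgap2, Slx4ip and Sema6d (0.922 to 0.937). For Gas6 these were P2ry10b, Plscr3 and Ighd (0.875 to 0.879) and then Stambpl1, Slc33a1 and Jdp2 (0.915 to 0.933). For Pros1 they were Dpysl2, Tram1 and Hibadh (0.898 to 0.920) and then Tmem176b, Pip4p1 and D17H6S53E (0.851 to 0.894). Mfge8 came closest to Bcas3, Cplane1 and Arrdc1 (0.947 to 0.949) and then to Shmt2, Osgin2 and Knop1 (0.819 to 0.908). Stab1 came closest to Slc1a3 (0.938) and Dram2 (0.937) and then to Dram2, Rabepk and Tlr7 (0.862 to 0.881). The points share library and depth, and over 15 mice only Clec7a for Axl and Dram2 for Stab1 were named in both sets of mice.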

How the data were processed

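The deposited matrix holds counts of UMIs per gene and cell, 1 table for 15 mice, made by the authors from droplet 3′ libraries of CD45-enriched brain cells, which they filtered, integrated and clustered with Seurat. The submitters' processing notes name Cell Ranger 4.0.0 and mm10. The authors also deposited UMIs, genes and the percent of mitochondrial UMIs for each cell, the last of which was not used, and a cluster number. Doublets were not called here. A further control animal named in the labels was not analysed here.

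UMIs were summed per mouse and fitted over all 5 groups with limma-voom (R 4.3.3, limma 3.58.1) on TMM factors from edgeR 4.0.16, after filterByExpr (minimum count 10, total 15), with p-values adjusted by Benjamini-Hochberg over 14260 genes and called under 0.05. The p-values measure the spread between single mice, which the labels give as separate animals. Depth was 32341960 to 70307384 UMIs per mouse, and the limit given for a count of 0 covers counting error only, while the intervals of fold changes are from limma-voom and carry the spread between mice. Cell shares used Python 3.11.15, numpy 2.4.6, scipy 1.17.1 and pandas 2.3.3. Alternatives were edgeR's quasi-likelihood test, DESeq2 1.42.0, other scalings, no filter, subsets of cells, each mouse left out, and the batch as a block. The labels give each replicate number as a shared batch, and deviations from group means correlated at a mean of 0.104 within a batch (30 pairs, -0.216 to 0.367) and -0.0521 between batches (60 pairs). Gene positions are from GENCODE on mm10, and promoter sequences from RefSeq, matched by symbol for all 7 genes.

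The 7 genes and all lists were chosen with earlier results of these data known. Of the wider list, the text names up to 2 called genes per role with the largest day 1 change and every gene called later. For each member it also names the 3 most similar genes over all 15 mice and over the 12 outside day 1. The fits were tested on simulated counts. Of the genes most like a member, 1 is not reported here.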

Additional observations from a re-analysis of the deposited data

Results flagged for a closer look

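The change from day 1 to day 7 of ATV:4D9 was itself tested, and it differed from 0 for 5 of the 6 genes tested, beside 66.9% of all genes (limma-voom). Axl was lower at day 7 (log2 fold change -1.92), as was Pros1 (-0.27). Mfge8 (0.56), Mertk (0.48) and Stab1 (0.33) were higher. In each of these the 3 mice of 1 day lay wholly apart from those of the other. Leaving out any 1 mouse gave 5 calls each time. Scaled by the number of cells, Mfge8 (0.098), Mertk (0.013) and Stab1 (-0.13) lost their calls (limma-voom adjusted p of 0.510, 0.930 and 0.218). Within clusters 0, 1 and 2 Axl was 0.69, 0.44 and 0.64, higher in place of lower, and was called in cluster 2 alone.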

How the results depend on the processing

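At day 1, 6 members were called, beside 69.2% of all genes, and 3 when scaled by the number of cells, beside 62.7%. Within clusters 0, 1 and 2 it was 1, 2 and 2, with the shares of all genes given above. At day 7, 2 were called, beside 3.98% of all genes, and 4 with the library size alone, 1 with no filter and 0 within cluster 2. At day 14 cluster 1 gave 1 in place of 0. From day 1 to day 7, 5 were called, beside 66.9% of all genes, and 1, 2 and 3 within clusters 0, 1 and 2. Scaled by cells it was 3 (Axl, Pros1 and Gas6), beside 63.2% of all genes. Leaving out 1 mouse gave 5 to 6 members at day 1, 1 to 2 at day 7 and 5 in the contrast of day 7 with day 1, and 27 to 30 and 1 to 3 genes of the wider list at days 1 and 7. That list had 2 genes called at day 7, beside 3.98% of all genes, and 11 with the library size alone and 4 with DESeq2. Counts that stand here with no share of all genes beside them are not read as results about these genes. The replicate block gave 5 genes of the wider list at day 7 (7.11% of all genes) and changed no call of a member. Without thinning, 3 members in place of 6 had an unadjusted exact p under 0.05.

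Where a member was called in either fit, directions that reversed against the summed cells, as log2 fold changes, were as follows. At day 1, Axl was -0.40 in cluster 2, Gas6 was 0.00853 in cluster 0, 0.10 in cluster 1 and 0.0829 when scaled by cells, and Pros1 was -0.0904 with the library size alone. At day 7, Gas6 was 0.0235 in cluster 2. From day 1 to day 7, Axl was 0.69, 0.44 and 0.64 in clusters 0, 1 and 2, Mertk was -0.12 in both cluster 0 and cluster 1, and Stab1 was -0.13 when scaled by cells. Cluster fits hold fewer cells and rest on a sorting made from the same counts. Of a mouse, cluster 2 held 5607 to 6597 cells at day 1 and 120 to 245 at day 7. The cause was not tested. The library size alone moved the median of all genes to -0.29 at day 1 and -0.10 at day 7. Axl kept its calls at days 1 and 7 in all alternatives over whole mice, at 3.44 to 4.06 and 1.53 to 2.14, as did Mertk at day 1 (-0.89 to -0.29). Timd4, with 25 UMIs, was too shallow to show a difference between groups.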
